A study of Mus musculus with 14 samples.

Results

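A set of 10 genes of the collagen-rich stromal matrix were followed through the conversion of mouse embryonic stem cells (ESCs) into extraembryonic endoderm (XEN) cells: Col1a1, Col1a2, Col3a1, Col5a1, Col5a2, Col6a1, Mmp2, Lum, Dcn and Postn. They were listed by name, with no threshold on their values, and are 10 of the 23174 gene rows in the expression table. RNA from 14 libraries was measured by polyA RNA sequencing and given as FPKM (fragments per kilobase of transcript, scaled to the mapped fragments of each library). The course had 4 lines sampled at 3 stages, 12 libraries in all, on a 129S1/SVImJ strain background: wild type (WT3), the Zfp281 knockouts KO3.34 and KO2.6, and Rescue3.34, which is the KO3.34 knockout with Zfp281 put back. ESCs (passage 0) grew without feeders on gelatin in LIF and serum. The cXENp1 cells had spent 48 h in 0.01 µM all-trans retinoic acid and 10 ng/mL activin A in XEN medium on gelatin, and had not yet met feeder cells. The cXENp3 cells had passed through passage 2 on immortalised mouse embryonic fibroblast (iMEF) feeders and were back on gelatin. The reference lines, both labelled wild type, were XEN5 (129S1/SVImJ) and XENB1 (129S1), established XEN lines grown on gelatin without feeders but in medium conditioned by embryonic fibroblasts.

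Wild type and rescue are 1 line each, and "Zfp281-present" below means those 2 lines together. Lines stand in for replicates, and the labels do not say that libraries came from separate cultures, so p-values measure only the spread between these libraries. Zfp281 read 25.1 to 38.6 FPKM in WT3 and Rescue3.34, 0 to 0.559 in KO2.6 and 1.29 to 3.96 in KO3.34, as the labels give. Library depth is unknown, since the table holds no counts. Rescue3.34 at cXENp3 stood apart: it had the highest of all 14 values for 8 of the 10 matrix genes, which held for 2.17% of the 13191 genes tested. All ESC libraries but that of KO2.6 carry another sample-code prefix than the other 11 libraries, so for those 3 lines the prefix and the ESC stage cannot be told apart. KO2.6, whose 3 stages share a prefix, is therefore also given alone below.

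Collagen I, built from 2 Col1a1 chains and 1 Col1a2 chain, and collagen III, built from Col3a1, form the bulk fibrils of connective tissue. Collagen V, from Col5a1 and Col5a2, starts these fibrils and limits their width, while collagen VI, of which Col6a1 is a chain, forms beaded microfilaments and is not a fibrillar collagen. Decorin (Dcn) and lumican (Lum) are small proteoglycans that bind fibrils, periostin (Postn) is a matricellular protein that helps collagen cross-linking, and Mmp2 is a gelatinase that cleaves denatured collagen and basement membrane collagen. Fibroblasts make these proteins in abundance, and the parietal endoderm, the lineage XEN cells resemble in culture, is known for thick basement membrane.

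The start sites of these genes do not share a layout, which is why 3 upstream windows are shown here. RefSeq (GRCm38.p6) listed windows for 5 of the 10 genes (6 windows), and each run below is the 250 bases before the start site on the + strand, with capitals marking matches, on either strand, to the TATA box motif TATAAA or to the GC box motif GGGCGG.
Col3a1, chr1:45311288-45311537: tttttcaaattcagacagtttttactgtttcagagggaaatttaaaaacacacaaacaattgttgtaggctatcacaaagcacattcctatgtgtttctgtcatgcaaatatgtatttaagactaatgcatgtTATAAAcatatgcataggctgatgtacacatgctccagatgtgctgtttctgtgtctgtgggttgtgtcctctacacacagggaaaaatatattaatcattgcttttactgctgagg
Col5a1, chr2:27886175-27886424: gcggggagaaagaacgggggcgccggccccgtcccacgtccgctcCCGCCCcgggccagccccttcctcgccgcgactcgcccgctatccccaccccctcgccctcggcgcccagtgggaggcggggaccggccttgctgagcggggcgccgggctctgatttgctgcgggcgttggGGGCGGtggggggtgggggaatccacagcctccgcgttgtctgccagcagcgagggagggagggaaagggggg
Postn, second listed start, chr3:54360857-54361106: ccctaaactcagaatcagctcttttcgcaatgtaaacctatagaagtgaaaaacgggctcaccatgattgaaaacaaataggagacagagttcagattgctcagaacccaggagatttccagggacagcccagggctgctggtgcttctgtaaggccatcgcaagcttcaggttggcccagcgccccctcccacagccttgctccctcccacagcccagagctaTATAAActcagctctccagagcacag
The Col3a1 window was 35.2% G+C, with TATAAA beginning 117 bases before the start. The Col5a1 window was 76.4% G+C, with 2 GC boxes and no TATAAA. The Postn window was 52.0% G+C, with TATAAA beginning 26 bases before the start. Over both strands, TATAAA occurred in 12.4% and GGGCGG in 32.7% of 32851 windows of this length, CCAAT in 33.8% and the GATA-type site AGATAA in 9.99%. CCAAT was found in the Col1a2 window, and AGATAA was not among the letters of the 6 windows. These matches describe the windows and say nothing of factor binding.

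In ESCs 8 of the 10 genes were at or below 1.03 FPKM in every library, the exceptions being Mmp2 and Col5a1. Col1a1 (XLOC_002914, mm9 chr11:94797584-94813170) read 0.371 FPKM in WT3, 0.206 in KO2.6, 0.322 in KO3.34 and 1.03 in Rescue3.34 ESCs. It read 8.50, 4.83, 4.60 and 2.37 FPKM in the same order at cXENp1, and 17.5, 168, 133 and 509 at cXENp3. XEN5 had 278 FPKM and XENB1 326. In every line the value was higher at each step, and the cXENp3 values ran from far below both XEN lines (WT3) to above both (Rescue3.34). Col1a2 (XLOC_016332, chr6:4455697-4491543), the partner chain, took another course. It read 0.0941, 0.0108, 0.0836 and 0.270 FPKM in WT3, KO2.6, KO3.34 and Rescue3.34 ESCs, 38.5, 0.563, 2.74 and 27.8 at cXENp1, and 7.24, 108, 83.9 and 334 at cXENp3, against 154 in XEN5 and 184 in XENB1. WT3 and Rescue3.34 were thus far above both knockouts at cXENp1, and WT3 was the line with a lower value at cXENp3 than at cXENp1.

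Col3a1 (XLOC_000101, chr1:45368383-45406551) was the collagen among the 10 genes on which Rescue3.34 at cXENp3 stood highest relative to the XEN lines. It read 0.0793, 0, 0.0699 and 0.247 FPKM in WT3, KO2.6, KO3.34 and Rescue3.34 ESCs, 3.01, 0.992, 1.28 and 0.329 at cXENp1, and 4.21, 20.8, 30.0 and 305 at cXENp3, against 35.3 in XEN5 and 27.8 in XENB1. The knockouts ended near the XEN lines, and Rescue3.34 went from the lowest of its stage to the highest. Of the collagen V chains, Col5a1 (XLOC_010719, chr2:27741945-27895030) spanned 0.674 to 2.87 FPKM in ESCs and 6.67 to 9.99 at cXENp1. At cXENp3 it read 3.84 FPKM in WT3, 37.7 in KO2.6, 30.4 in KO3.34 and 63.3 in Rescue3.34, against 42.0 in XEN5 and 53.9 in XENB1. Col5a2 (XLOC_000744, chr1:45431176-45560127), which lies 24624 bases from Col3a1, stayed at or below 0.0268 FPKM in ESCs. It read 9.36, 0.631, 5.81 and 6.98 FPKM in WT3, KO2.6, KO3.34 and Rescue3.34 at cXENp1, and 3.35, 51.3, 39.5 and 91.6 at cXENp3, against 35.7 in XEN5 and 59.9 in XENB1. As with Col1a2, KO2.6 was the low library at cXENp1 and WT3 the low library at cXENp3.

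Col6a1 and Postn were the members whose highest values lay in the XEN lines. Col6a1 (XLOC_002038, chr10:76171537-76188789) spanned 0.188 to 0.318 FPKM in ESCs and 1.17 to 2.52 at cXENp1. At cXENp3 it read 1.28 FPKM in WT3, 26.9 in KO2.6, 12.2 in KO3.34 and 20.1 in Rescue3.34, against 51.3 in XEN5 and 36.2 in XENB1. Postn (XLOC_012643, chr3:54165029-54194963) stayed at or below 0.436 FPKM through cXENp1, then read 0.685 in WT3, 18.3 in KO2.6, 10.1 in KO3.34 and 23.3 in Rescue3.34 at cXENp3, against 32.5 in XEN5 and 36.0 in XENB1. No cXENp3 library reached the lower XEN line for either gene.

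The proteoglycans were highest in Rescue3.34. Dcn (XLOC_001666, chr10:96942134-96980796) read 0.319, 0, 0.118 and 0.182 FPKM in WT3, KO2.6, KO3.34 and Rescue3.34 ESCs, 7.53, 0.372, 4.96 and 17.1 at cXENp1, and 0.163, 3.27, 1.86 and 27.9 at cXENp3, against 6.36 in XEN5 and 5.37 in XENB1. From cXENp1 to cXENp3 its value was lower in WT3 and KO3.34 and higher in KO2.6 and Rescue3.34. Lum (XLOC_001667, chr10:97028135-97035337), 47338 bases from Dcn, reached 1 FPKM in only 3 libraries, Rescue3.34 at cXENp1 (1.70), Rescue3.34 at cXENp3 (8.32) and XEN5 (1.06). It was listed at 0 in WT3 at cXENp3 and in KO2.6 at cXENp1. Kera and Epyc, proteoglycan genes of the same family, were listed at 0 or at most 0.0351 FPKM in every library.

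Mmp2 (XLOC_020035, chr8:95351227-95377319) was the member with the highest ESC levels. It read 13.5, 1.12, 8.04 and 19.7 FPKM in WT3, KO2.6, KO3.34 and Rescue3.34 ESCs, 60.6, 6.05, 9.19 and 33.1 at cXENp1, and 12.7, 22.9, 15.0 and 141 at cXENp3, against 19.6 in XEN5 and 27.1 in XENB1. In ESCs and at cXENp1 both Zfp281-present libraries lay above both knockouts. At cXENp3 WT3 was the lowest and Rescue3.34 the highest, so the groups overlapped.

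**Figure D1:**
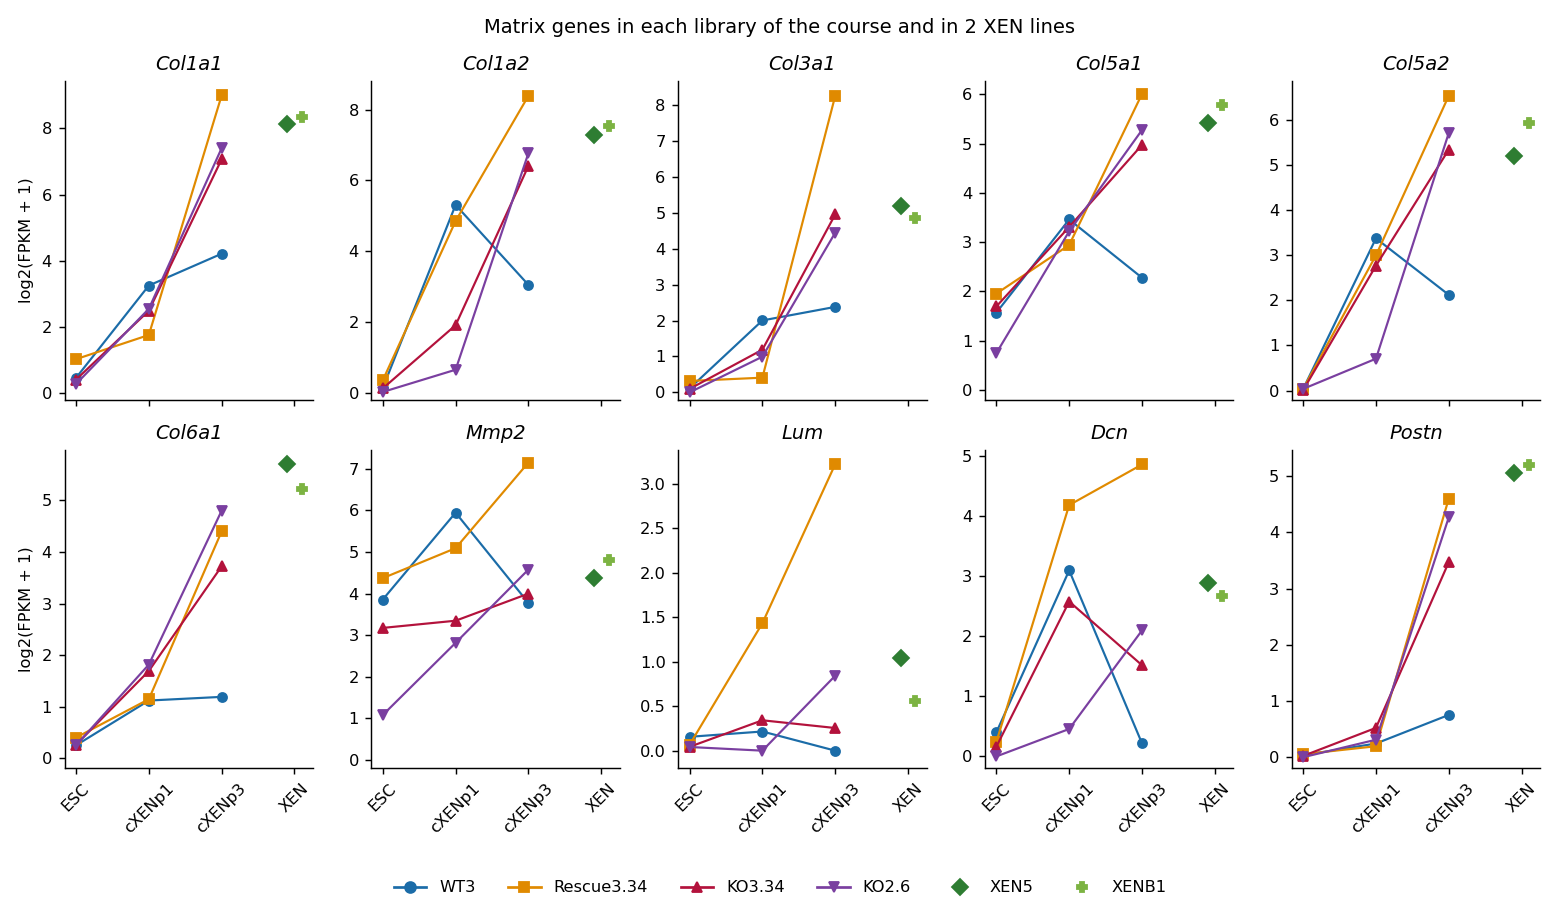
Level of each matrix gene, as log2(FPKM + 1) on the vertical axis, in the ESC, cXENp1 and cXENp3 libraries of 4 lines (joined points) and in the XEN5 and XENB1 lines (separate points). Rescue3.34 at cXENp3 is the highest point for 8 of the 10 genes, and WT3 is the lowest of the 4 cXENp3 points for all 10.

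To ask when the matrix genes came on, stages were compared across the 4 lines with limma on log2(FPKM + 1), each line being a block, with Benjamini-Hochberg adjustment over all 13191 genes tested. All log2 changes are on this scale, which understates changes of low genes. At cXENp1, before any feeder contact, 9 of the 10 genes were above their ESC level in all 4 lines, Lum being the exception, against 29.6% of all genes tested. Dcn passed the test with a log2 change of 2.37 (SE 0.74, limma adjusted p = 0.0401). It was the 1 member called (it was not called without the line block, adjusted p = 0.0675, where Col5a2 was, 0.0443), against 28.5% of all genes called in either direction and 14.7% called higher. Col5a2 (log2 change 2.43, SE 0.82) and Col5a1 (1.74, SE 0.61) missed the threshold with limma adjusted p of 0.0512 and 0.0579. KO2.6 alone, within 1 sample-code prefix, went from 0 to 0.372 FPKM for Dcn, against 4.96 to 17.1 in the other lines at cXENp1. Col1a2, Col3a1, Col5a2, Lum and Postn also stayed under 1 FPKM in KO2.6, while Col1a1 read 4.83, Col5a1 8.30, Col6a1 2.52 and Mmp2 6.05. Without WT3 the count of members called became 5, where 16.6% of all genes were called. Without KO3.34 or Rescue3.34 it became 0, where 10% and 9.57% of all genes were called.

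At cXENp3, 7 of the 10 genes were higher than in ESCs, against 9.35% of all genes called in either direction and 5.34% called higher. Col1a1 rose by 6.38 on the log2 scale (SE 0.77, limma adjusted p = 0.00722), Col1a2 by 6.0 (SE 1.10, 0.0221) and Col5a2 by 4.90 (SE 0.82, 0.0176). Col3a1 rose by 4.88, Postn by 3.25, Col6a1 by 3.24 and Col5a1 by 3.14, with limma adjusted p of 0.0160 to 0.0244. Mmp2 (log2 change 1.75), Dcn (1.97) and Lum (1.00) did not pass. Since 7 of the 10 genes were under 1 FPKM in all 4 ESC libraries, they passed the filter (at least 1 FPKM in 2 libraries) through later stages, and the filter itself favours a higher value there. With every gene above 0 kept, 7 members were again called higher, where 2.43% of 18962 genes were called. The median log2 change of the 10 was 3.24, beside -0.0093 for all genes. The count fell to 2 without KO2.6, where 2.38% of all genes were called. It fell to 0 without KO3.34 or Rescue3.34, where 0 and 1 of all genes were called. KO2.6 alone, within 1 sample-code prefix, went from 0.206 to 168 FPKM for Col1a1 and from 0 to 18.3 for Postn.

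The step from cXENp1 to cXENp3 held most of the rise of 4 genes: Col1a1 (log2 change 4.41, SE 0.77, limma adjusted p = 0.0105), Col3a1 (3.86, SE 0.91, 0.0348), Postn (2.96, SE 0.59, 0.0177) and Col6a1 (2.08, SE 0.53, 0.0448). Of all genes 7.45% were called here and 2.47% called higher. Postn, at or below 0.436 FPKM through cXENp1, passed the filter through cXENp3 alone, so the filter fixed its direction. The same 4 genes were higher at cXENp3 in all 4 lines, against 13.3% of genes tested. Dcn had a log2 change of -0.40 (SE 0.74). Without KO3.34 or Rescue3.34 no member was called, where 0.957% and 2.52% of all genes were called. Without KO2.6 there was 1, where 7.89% of all genes were called.

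XEN5 and XENB1, grown without feeders, were then set against ESCs. Of the 9 members that passed the expression filter, 8 were higher in the XEN lines than in the 4 ESC libraries, against 41.9% of 12372 genes called in either direction and 22.2% called higher. Of these 8, 6 were under 1 FPKM in all 4 ESC libraries and passed the filter through the XEN lines alone, so the filter fixed their direction. With every gene above 0 kept, 9 members were called higher, Lum being the added one, where 30.4% of 17960 genes were called. Col1a1 was higher by 7.70 on the log2 scale (SE 0.29, limma adjusted p = 6.07e-06), Col1a2 by 7.25 (SE 0.25, 4.92e-06), Col5a2 by 5.53 (SE 0.27, 1.5e-05), Col6a1 by 5.17 (SE 0.25, 1.5e-05) and Postn by 5.11 (SE 0.22, 1e-05). Col3a1 (4.88), Col5a1 (4.11) and Dcn (2.57) also rose. Mmp2 did not pass (1.47, SE 0.81, adjusted p = 0.178) and Lum did not pass the filter. With either XEN line left out, 3 members could still be tested, while the other 6 no longer passed the filter. Their log2 changes were 7.59 to 7.82 (Col1a1), 3.94 to 4.29 (Col5a1) and 1.24 to 1.69 (Mmp2). Together the 10 genes summed to 656 FPKM in XEN5 and 756 in XENB1, which is 0.111% and 0.125% of each column's total.

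The knockout cXENp3 libraries stood below these levels but in the same range. Their mean was 41.5% of the XEN mean for Postn, 49.7% for Col1a1, 56.8% for Col1a2, 80.5% for Col3a1 and 95.1% for Col5a2, with all 10 genes inside these limits. In the fit of 14 libraries in 7 groups, 0 of 10 members differed between the knockout cXENp3 and XEN libraries by limma, 0 had an unadjusted p under 0.05, and 4.12% of 13386 genes were called. The log2 differences ran from -1.26 (Postn, SE 0.86) to -0.04 (Col5a2, SE 1.07), so differences of about this size could not be resolved. WT3 at cXENp3 stayed between 2.00% and 13.4% of the XEN mean for 8 genes, at 54.5% for Mmp2, and was listed at 0 for Lum.

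Rescue3.34 at cXENp3 exceeded both XEN lines for 8 of the 10 genes, and by unequal amounts. It stood at 10.8-fold of the XEN mean for Lum, 9.67 for Col3a1, 6.03 for Mmp2 and 4.75 for Dcn. For Col1a2 the ratio was 1.98, for Col5a2 1.92, for Col1a1 1.68 and for Col5a1 1.32. Postn (0.681) and Col6a1 (0.459) stayed below. The 10 genes summed to 1523 FPKM there, 0.286% of the column, against 51.0 FPKM in WT3, 458 in KO2.6 and 356 in KO3.34 at the same stage. There is 1 such library, so these ratios have no replicate check. The share of all genes above or below both XEN lines was not counted, here or for the lists below. In bulk RNA, fewer cells of a type and less RNA per cell cannot be told apart.

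**Figure D2:**
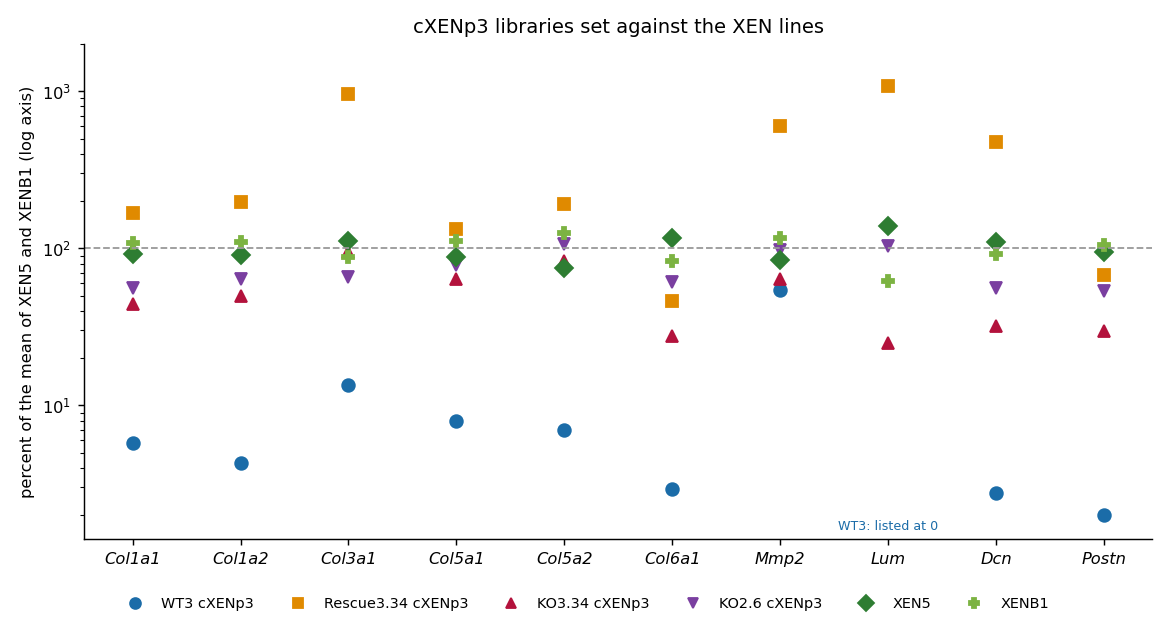
Level of each matrix gene in the cXENp3 libraries and in XEN5 and XENB1, as a percentage of the mean of the 2 XEN lines (log axis, dashed line at 100%). Knockout points lie near or below the line, WT3 lies lowest for every gene, and Rescue3.34 lies highest for all but Col6a1 and Postn.

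Endoderm transcription factors were low in Rescue3.34. Of 15 parietal endoderm and XEN genes listed, Rescue3.34 at cXENp3 lay below both XEN lines for 11 and above both for 4. Those 4 (Sparc, Lama1, Col4a2, Col4a1) were listed at 0 in both XEN lines and both knockout cXENp3 libraries. KO2.6 at cXENp1 read 852 FPKM for Sparc and 772 for Col4a1. The zeros may be failed estimates, so the place of Rescue3.34 on these 4 genes is not read as a difference. Gata4, a transcription factor of primitive endoderm, read 323 FPKM in KO2.6 and 410 in KO3.34 at cXENp3 and 430 and 326 in XEN5 and XENB1, but 1.11 in WT3 and 0.230 in Rescue3.34. Sox17, another endoderm factor, read 106, 183, 153, 206, 0.306 and 0.0631 FPKM in the same order. Pou5f1, a pluripotency factor, read 1313 FPKM in WT3 and 685 in Rescue3.34 at cXENp3, against 47.4 in KO2.6, 189 in KO3.34, 0 in XEN5 and 10.4 in XENB1. High collagen levels thus occurred both with the endoderm factors (knockout cXENp3, XEN lines) and without them (Rescue3.34 cXENp3). KO2.6 at cXENp1 had 91.2 FPKM of Gata4 and 0.563 of Col1a2. Its mean log2(FPKM + 1) of Gata4, Gata6, Sox7 and Sox17 was 5.45, against 1.53 to 2.37 in the other cXENp1 libraries. For the 10 matrix genes the mean was 1.35, against 2.01 to 2.80. Not every collagen was low there: Col6a1 (2.52 FPKM) was the highest of its stage and Col1a1 (4.83) lay within the range of the other lines.

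**Figure D3:**
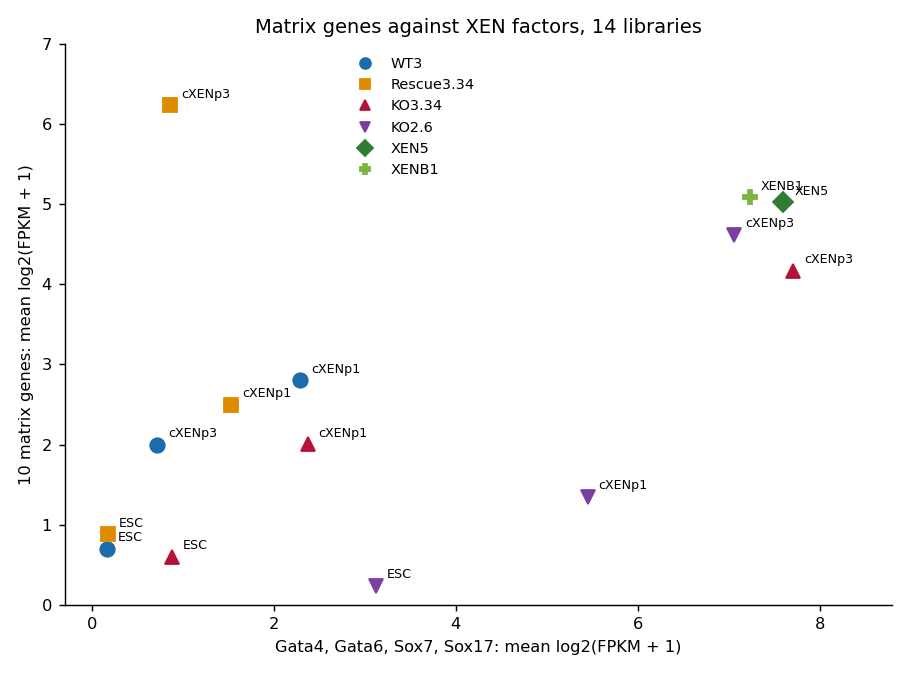
Mean log2(FPKM + 1) of the 10 matrix genes (vertical axis) against that of Gata4, Gata6, Sox7 and Sox17 (horizontal axis), 1 point per library. The knockout cXENp3 and XEN libraries lie at the upper right (matrix 4.17 to 5.09, factors 7.06 to 7.71), while Rescue3.34 at cXENp3 lies at the upper left (6.24 and 0.86).

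Markers of fibroblasts and of smooth muscle were also measured. The 20 fibroblast genes on a list drawn up for feeder cells summed to 11.6 to 26.2 FPKM in ESCs and 60.9 to 80.9 at cXENp1. At cXENp3 the sum was 18.8 FPKM in WT3, 124 in KO3.34, 223 in KO2.6 and 226 in Rescue3.34, against 179 in XEN5 and 280 in XENB1. Of the 20, 14 were at 1 FPKM or more in both feeder-free XEN lines, and 14 in Rescue3.34. Rescue3.34 lay above both XEN lines for 8 of the 20 and below both for 9 (shares of all genes not counted). Among the 8 was Cdh11, a mesenchymal cadherin, at 71.2 FPKM against 17.5 in XEN5 and 29.6 in XENB1. Prrx1, a mesenchymal homeobox factor, read 20.2 against 11.9 and 18.9, and Thy1, a fibroblast surface protein, 37.4 against 25.9 and 27.7. Among the 9 below both were Twist2, at 2.69 FPKM against 10.4 and 16.8, and Pdgfrb, at 7.91 against 8.39 and 10.6. Dpt (dermatopontin) was listed at 0 in every ESC and cXENp1 library and in WT3 at cXENp3, and read 0.231 in Rescue3.34 against 0.785 in XEN5 and 0.344 in XENB1. These named markers were picked after their values were seen.

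The 8 smooth muscle genes summed to 219 to 377 FPKM at cXENp1, when the 10 matrix genes summed to 24.5 to 139. They summed to 1324 FPKM in Rescue3.34 at cXENp3, against 61.0 in WT3, 385 in KO2.6 and 411 in KO3.34. In XEN5 and XENB1 the sum was 152 and 737. Of the 8 genes, 7 were above both XEN lines in Rescue3.34 (share of all genes not counted). Actg2, a smooth muscle actin, read 196 FPKM against 4.68 and 35.7, and Myh11, its myosin heavy chain, 19.1 against 0.252 and 2.60 (also picked after their values were seen). In both feeder-free XEN lines 8 of the 10 matrix genes read 5.37 FPKM or more with a call against ESCs. For 6 of these the filter fixed the direction. At cXENp3 all 10 were lowest in WT3, a single library, and the share of all genes lowest there was not counted. For 9 of the 10 Rescue3.34 was also the highest, an order found in 2.88% of genes tested. The part of residual feeder cells in these values was not tested.

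With the lines grouped by Zfp281, the matrix genes showed 0 calls of 10 in ESCs by limma, with 0 at an unadjusted p under 0.05 and 1.97% of all genes called. In ESCs 7 members were higher in both Zfp281-present libraries than in both knockouts, against 27.9% of genes, though apart from Mmp2 these were at 1.03 FPKM or less. None was higher in both knockouts, against 25.3% of genes. At cXENp1 there were again 0 calls (0.485% of all genes), with Col1a2 (log2 difference -3.80, SE 1.25, adjusted p = 0.273) and Mmp2 (-2.43, SE 0.95, 0.370) the 2 members with an unadjusted p under 0.05. At that stage 4 members did not overlap in the direction of higher Zfp281-present libraries (Col1a2, Col5a2, Mmp2 and Dcn), against 20.6% of genes. Col6a1 and Postn did not overlap in the other direction, against 27.2%.

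At cXENp3 none of the 10 passed the limma test between knockout and Zfp281-present lines, none had an unadjusted p under 0.05, and 41.9% of all genes were called. The adjusted p values ran from 0.158 (Col6a1) to 0.746 (Col3a1). No member separated the groups in either direction, against 35.7% of genes higher in both Zfp281-present libraries and 37.2% higher in both knockouts. The 2 Zfp281-present libraries lay on opposite sides of the knockouts: 9 of 10 members were lowest in WT3 and highest in Rescue3.34, an order found in 2.88% of genes. Rescue3.34 over WT3 ranged from 11.1 for Mmp2 to 171 for Dcn, with Lum listed at 0 in WT3.

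Against WT3 alone, 7 members were higher in the knockouts at cXENp3, where 22.1% of all genes were called. Col1a2 was higher by 3.54 on the log2 scale (SE 0.54, limma adjusted p = 0.00913), Postn by 3.12 (SE 0.41, 0.00694) and Col1a1 by 3.02 (SE 0.35, 0.00528). Col5a2, Col6a1, Col5a1 and Col3a1 were higher by 3.40, 3.07, 2.85 and 2.32. Against Rescue3.34 alone, 3 members were lower in the knockouts, where 8.14% of all genes were called: Col3a1 by a log2 difference of -3.56 (SE 0.38, limma adjusted p = 0.00968), Lum by -2.67 (SE 0.37, 0.0170) and Col1a1 by -1.76 (SE 0.34, 0.0308). Lum passed the filter there through Rescue3.34 alone, so its direction was fixed by the filter. In the fit against WT3 alone, Postn passed the filter through the 2 knockout cXENp3 libraries alone, so its direction was fixed too. Each of these fits sets 2 knockout lines against a single library, which is assumed to vary like the other groups.

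**Figure D4:**
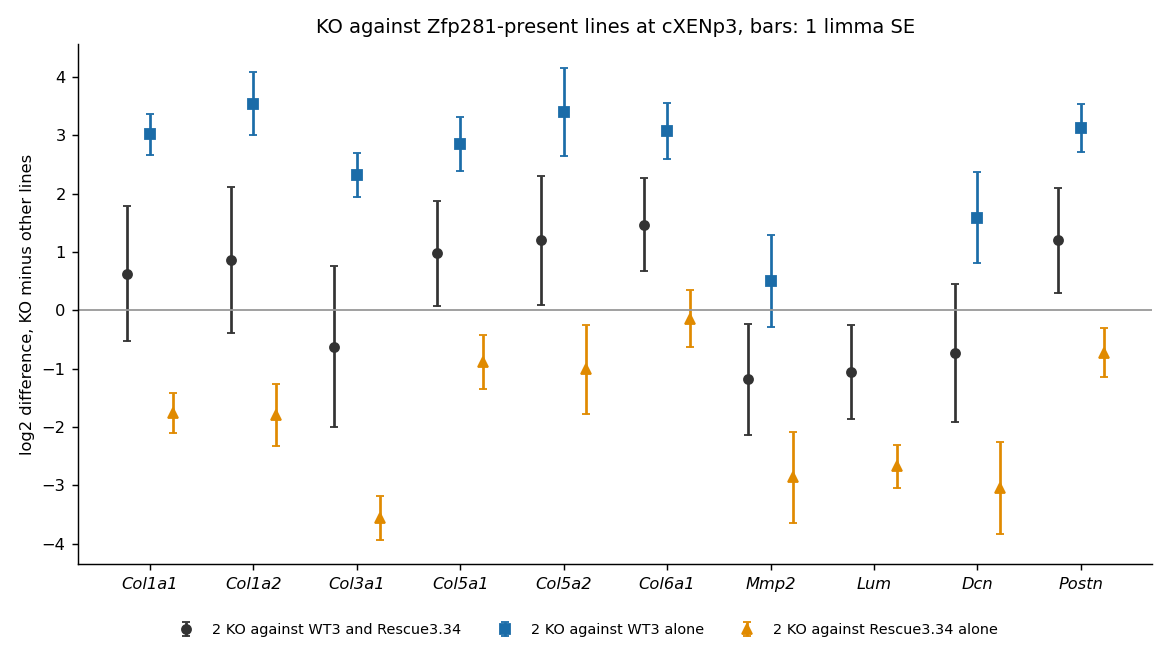
Log2 difference between the 2 knockout lines and the Zfp281-present lines at cXENp3 for each matrix gene, with bars of 1 limma standard error, for both Zfp281-present lines, for WT3 alone and for Rescue3.34 alone. Col1a1 lies at 3.02 against WT3 and at -1.76 against Rescue3.34; Lum against WT3 is not drawn because it did not pass the filter.

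The change from cXENp1 to cXENp3 gave no call between knockout and Zfp281-present lines (0 of 10 by limma, 1 at an unadjusted p under 0.05, 11.4% of all genes called). That member was Col1a2, with a log2 difference of 4.68 (SE 1.77, adjusted p = 0.104). The fit had no line block, so the pairing of stages within a line was not used. Without Rescue3.34, 3 were called, where 1.32% of all genes were: Col1a2 (7.58), Col1a1 (3.76) and Col3a1 (3.23). Set against the XEN lines, the Zfp281-present cXENp3 libraries were lower for 2 members, Col6a1 (-2.67, SE 0.75, limma adjusted p = 0.0162) and Postn (-2.46, SE 0.86, 0.0413), where 39.1% of genes were called and 21.4% were called lower. WT3 alone was lower than XEN for 8 members, where 24.6% of all genes were called. Rescue3.34 alone was higher for 2, Col3a1 (3.24) and Lum (2.42), where 14.5% of all genes were called.

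The chains of collagen I were not measured in a fixed ratio. At cXENp1 the Col1a2 to Col1a1 ratio of FPKM was 4.53 in WT3 and 11.7 in Rescue3.34, but 0.117 in KO2.6 and 0.594 in KO3.34. At cXENp3 it narrowed to between 0.414 and 0.656 in all 4 lines, and it was 0.555 in XEN5 and 0.563 in XENB1. The Col3a1 to Col1a1 ratio was 0.599 in Rescue3.34 at cXENp3, against 0.241 in WT3, 0.226 in KO3.34, 0.124 in KO2.6, 0.127 in XEN5 and 0.0852 in XENB1. The ratio of Mmp2 to its inhibitor Timp2 at cXENp3 was 1.95 in WT3 and 2.07 in Rescue3.34, but 0.0860 in KO2.6 and 0.114 in KO3.34. It was 0.115 in XEN5 and 0.106 in XENB1. Mmp2 overlapped between the groups, with 12.7, 141, 22.9 and 15.0 FPKM in the 4 lines in that order. Its high value in Rescue3.34 added to the ratio there. Timp2 was lower in both Zfp281-present libraries than in both knockouts (6.53, 68.1, 266 and 132 FPKM in the same order). Such splits were common at cXENp3, with 35.7% of genes higher in both Zfp281-present libraries and 37.2% in both knockouts. The ratio was also higher in both Zfp281-present libraries at cXENp1 (3.27 and 2.22 against 0.312 and 0.626) and in ESCs (3.23 and 4.52 against 2.17 and 2.03). These ratios are single-library values with no test.

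**Figure D5:**
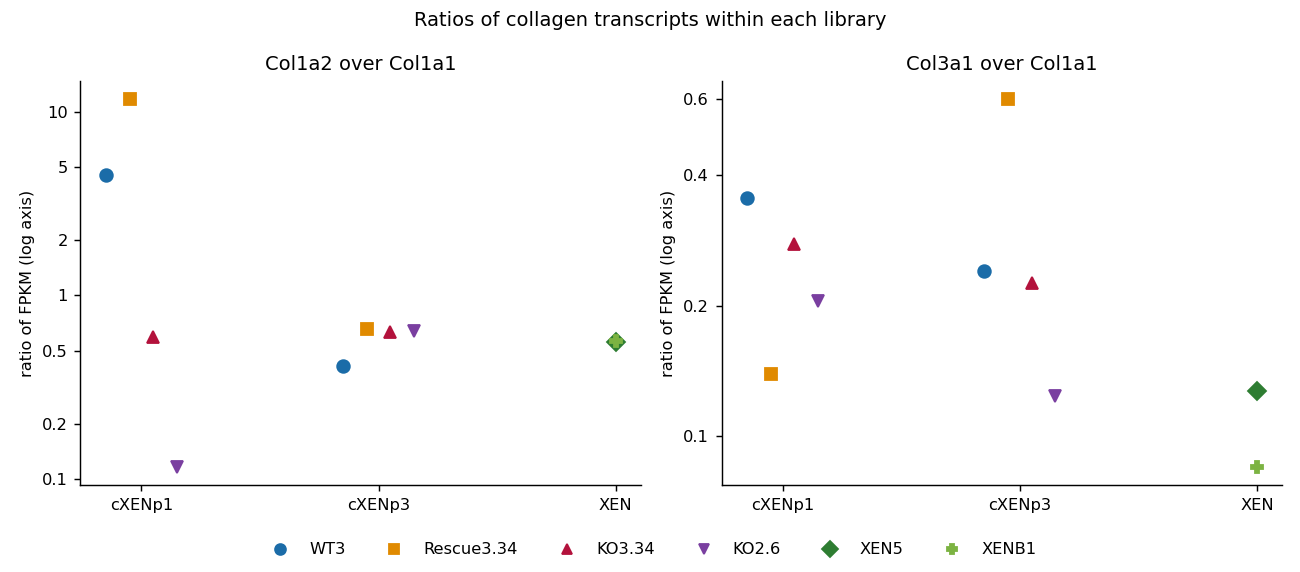
Ratio of Col1a2 to Col1a1 and of Col3a1 to Col1a1 FPKM (log axes) in each cXENp1, cXENp3 and XEN library. The Col1a2 ratio spreads from 0.117 to 11.7 at cXENp1 and from 0.414 to 0.656 at cXENp3, and Rescue3.34 at cXENp3 has the highest Col3a1 ratio, 0.599.

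Other matrix genes were followed by lists of related function. At cXENp1 the fibrillar collagen of cartilage, Col2a1, rose by 4.69 on the log2 scale (SE 0.37, limma adjusted p = 0.000151), the 1 call among 4 tested of 6 other fibrillar collagens, and it fell by 4.06 from cXENp1 to cXENp3. It read 15.4 to 68.1 FPKM at cXENp1 and at most 2.34 at cXENp3. The counts at cXENp3 against ESC below stand beside 9.35% of all genes called. Among 11 tested fibril processing and cross-linking genes, 5 were higher and 0 lower at cXENp3 than in ESCs, including Loxl2 (4.94) and Lox (4.90), which cross-link collagen, and Bmp1 (3.82), which trims procollagen. Of 9 small proteoglycans listed, 3 passed the filter and all 3 rose, with Bgn (biglycan) up by 5.42. Of 6 tested collagen VI and fibril-associated genes 4 rose, among them Col12a1 (3.10), Col6a3 (2.41) and Col6a2 (2.37). Lox, Col6a3 and the proteoglycans Fmod and Aspn stayed under 1 FPKM in all ESC and cXENp1 libraries. They passed the filter through cXENp3 alone, so the filter fixed their direction. In the XEN lines against ESCs, Bgn (7.62), Fbln2 (7.23), a fibulin of elastic fibres, and Lox (6.33) were higher, and 8 of 11 processing genes were higher and 2 lower, beside 41.9% of all genes called. Bgn, Fbln2 and Lox were under 1 FPKM in every ESC library, so the filter fixed their direction here too.

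The same lists were read by Zfp281 at cXENp3, where 41.9% of all genes were called and no member was. Counts near that share say nothing particular of a list. Of 11 processing genes 4 were higher and 2 lower in the knockouts, led by Loxl2 (3.31, SE 0.55, limma adjusted p = 0.00159), Bmp1 (2.80) and Loxl3 (2.02). Loxl2 read 25.0 FPKM in WT3 and 100 in Rescue3.34, against 612 in KO2.6 and 421 in KO3.34. Of 13 matrix metalloproteinases and inhibitors, 7 were higher and 2 lower, led by Timp2 (3.05, SE 0.87, 0.0189) and Timp3 (2.92), which inhibit metalloproteinases, and Mmp14 (1.93), which activates pro-Mmp2. Col27a1 (2.92) and Col5a3 (0.72) were higher among 4 other fibrillar collagens, as were Bgn (2.22) and Fmod (1.16) among 3 proteoglycans. Among the fitted libraries Col27a1 reached 1 FPKM in knockouts alone, so the filter itself favoured its direction. Of 9 matricellular genes 3 were higher, including Ctgf (5.16) and Cyr61 (3.90), and Tgfbi was lower (-3.69). Of 13 elastic fibre genes 4 were higher, of 5 collagen receptors 1 (Itgb1, 1.56), of 15 fibroblast genes 5 and of 8 smooth muscle genes 0. Sparc, a collagen-binding protein, was listed at 0 in both knockout cXENp3 and both XEN libraries beside 475 FPKM in Rescue3.34, a pattern that may be a failed estimate, so no fold is given.

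Across the 14 libraries the genes outside these lists most like the mean of the 10 members in log2(FPKM + 1) were Tmem176b (Pearson r = 0.968), Wisp1 (0.962), Tgfb3 (0.962), Pcdh7 (0.959) and Col4a5 (0.956), of 13386 genes searched. Tmem176b and Wisp1 read 40.9 and 20.2 FPKM in Rescue3.34 at cXENp3. For single members the closest gene was Cdh11 for both Col1a1 and Col3a1 (0.973), Col6a3 for Postn (0.996), Thbs2 for Col6a1 (0.987), Axl for Col5a1 (0.973), Pcdh7 for Col5a2 (0.965), Rftn2 for Col1a2 (0.959), Gypc for Dcn (0.945), Ogn for Lum (0.910) and Tmem35 for Mmp2 (0.864). The points share lines and stages, so the r values are descriptions.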

How the data were processed

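PolyA RNA was sequenced in 14 mouse libraries. The authors deposited 1 table of 23174 genes whose values were read as FPKM. Neither labels nor header name the unit, and it was taken from the values and from Cufflinks being listed. STAR 2.5.3, Cufflinks 2.1.1 and the mm9 build are named, with no role or order, per the submitters' processing notes. Coordinates are the table's own, as mm9.

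Genes with at least 1 FPKM in at least 2 fitted libraries were kept, and log2(FPKM + 1) was fitted with limma 3.58.1 (R 4.3.3), with trend and Benjamini-Hochberg adjustment over all kept genes (calls: adjusted p under 0.05). Stage fits used 12 libraries with line as block, and XEN against ESC used 6. Zfp281 fits used 12 libraries in 6 groups, or 14 in 7. Alternatives were a pseudocount of 0.1, other filters, quantile normalization, no block and leaving out each line. The limma code was tested on simulated data.

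The 10 members and all lists were chosen with earlier results of these data known. Named genes outside the members are, unless stated, up to 3 called genes per list by size of change, and the most alike by Pearson r. Depth is unknown. The line titled 2.6 is given as 2.26 in another label field, and the title was used.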

Additional observations from a re-analysis of the deposited data

Results flagged for a closer look

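In 7 groups of 4 libraries, the extreme library's gap to the next was large for the group's whole range (Dixon's criterion at 95%, which chance alone meets in about 1 of 20 groups). At cXENp3, Rescue3.34 was far above the next library for Col3a1 (305 FPKM, next 30.0), Mmp2 (141, next 22.9), Lum (8.32, next 0.793) and Dcn (27.9, next 3.27). It was also the high library for Lum at cXENp1 (1.70 FPKM, next 0.267) and for Col6a1 in ESCs (0.318, next 0.197). KO3.34 was the low library for Col5a2 in ESCs, at 0.00615 FPKM beside 0.0247 in the next, both close to 0. These groups mix genotypes, since each stage holds 4 different lines, and 6 of the 7 extremes are in Rescue3.34.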

How the results depend on the processing

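With a pseudocount of 0.1 the cXENp1 rise over ESCs was called for 6 members instead of 1, where 29.9% of all genes were called. It was called for 0 when every gene with any value above 0 was kept, when a mean of at least 5 FPKM was required, or after quantile normalization. The shares of all genes called were then 20.5%, 26.5% and 27.6%. The step from cXENp1 to cXENp3 was called for 2 and 1 members, instead of 4, under those 2 filters (5.79% and 4.57% of all genes). The shortfall of the Zfp281-present cXENp3 libraries against XEN was called for 1 member instead of 2 with the other pseudocount, with every gene kept, and after quantile normalization. There 41.1%, 27.8% and 40% of all genes were called. Without the line as replicate block the calls were 1 (cXENp1 against ESC), 7 (cXENp3 against ESC) and 3 (cXENp3 against cXENp1), so the block moved no count by over 1.5-fold. The shares of all genes called were 25.6%, 6.52% and 6.27%. The gene did change at cXENp1, where Dcn was lost (adjusted p = 0.0675) and Col5a2 gained (0.0443), and Col6a1 was lost at the last step (0.0609). Leaving out each line in turn gave 0 to 5 members at cXENp1 against ESC, 0 to 9 at cXENp3 against ESC and 0 to 7 at cXENp3 against cXENp1. XEN against ESC kept 8 members with any 1 ESC line left out, where 33.7% to 50.8% of all genes were called. The count moved for XEN against ESC without a XEN line. It moved too for the knockouts at cXENp3, the difference of the steps, and Zfp281-present cXENp3 against XEN. Those fits left 1 library in a group, so their counts are not listed here. In XEN against ESC the lower count without a XEN line follows from the filter, since 3 members could be tested without XEN5 or without XENB1. For the other comparisons the cause was not tested. The share of all genes called moved too with a line left out. It ran from 9.57% to 29.3% at cXENp1 against ESC and from 0% to 20% at cXENp3 against ESC. At cXENp3 against cXENp1 it ran from 0.957% to 7.89%. Some log2 values changed sign when a line was left out. For cXENp3 against cXENp1, this held for Dcn -1.09 to 0.42. For knockout against Zfp281-present lines in ESCs, this held for Col5a2 -0.028 to 0.00027 and Col6a1 -0.14 to 0.006. For the same at cXENp1, this held for Col1a1 -0.73 to 0.76, Col3a1 -0.91 to 0.68 and Col5a1 -0.2 to 0.32. For the same at cXENp3, this held for Col1a1 -1.76 to 3.02, Col1a2 -1.8 to 3.54, Col3a1 -3.56 to 2.32, Col5a1 -0.88 to 2.85, Col5a2 -1.01 to 3.4, Col6a1 -0.14 to 3.07, Mmp2 -2.86 to 0.51, Dcn -3.05 to 1.59 and Postn -0.73 to 3.12. For the difference of the steps from cXENp1 to cXENp3, this held for Col1a1 -2.52 to 3.76, Col3a1 -4.24 to 3.23, Col5a1 -1.21 to 3.05, Col6a1 -0.74 to 2.44, Mmp2 -0.85 to 3.37, Lum -1.41 to 0.055, Dcn -0.38 to 3.16 and Postn -0.95 to 2.95. For knockout cXENp3 against XEN, this held for Col5a2 -0.4 to 0.33 and Lum -0.55 to 0.04. For Zfp281-present cXENp3 against XEN, this held for Col1a1 -4.03 to 0.76, Col1a2 -4.36 to 0.98, Col3a1 -2.63 to 3.24, Col5a1 -3.33 to 0.4, Col5a2 -3.44 to 0.97, Mmp2 -0.81 to 2.56 and Dcn -2.56 to 2.08. Quantile normalization turned Col1a1 at cXENp1, knockout against Zfp281-present, to -0.064. A pseudocount of 0.1 turned Col3a1 there to 0.09 and Lum in the difference of the steps to 0.99. Depth is unknown, so values under 1 FPKM have no counting error attached, and Lum and all ESC levels except Mmp2 and Col5a1 are mostly of that kind. Wild type and rescue are single lines, and leaving out 1 line changed the count in 7 of 10 comparisons.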
